A study of Mus musculus with 1 sample.

Results

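Cells of early lymphoid type were picked from 1 single-cell RNA-seq library of mouse bone marrow progenitors by the genes Dntt and Flt3. A cell counted as a member, called a Dntt+ Flt3+ cell below, if it had at least 2 counts of each of these genes, fewer than 5 of Siglech, fewer than 3 of Klf1, and fewer than 3 of 9 stem cell genes above 0 (Hlf, Mecom, Procr, Fgd5, Hoxb5, Gcnt2, Mllt3, Mycn and Adgrg1). This rule was met by 328 of 10528 filtered cells. The library pooled marrow from 1 naive mouse and 1 mouse injected with LPS, a bacterial cell wall component. It held cKit+Lin- progenitors and GMP-MoPs of both mice and cMoPs of the naive one; the last 2 are monocyte progenitor populations. A PE-streptavidin hashtag with a DNA barcode, named A961 to A965, marked each sorted population, with 15000 cells loaded for A963 and for A965 and 100 for each of the others. Strain, age, sex, dose and time after LPS are not given in the sources used here, nor is the population or mouse behind each hashtag. Hashtags are therefore compared by name, without a treatment, and since none was replicated, no test was possible and no p-value is given. Intervals are exact 95% intervals unless stated and cover counting error only.

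Dntt encodes terminal deoxynucleotidyl transferase, the polymerase that adds nucleotides without a template at the joints of antigen receptor genes while RAG1 and RAG2 cut them. Flt3 is a receptor tyrosine kinase of multipotent and lymphoid progenitors. In marrow, expression of Flt3 with Dntt and Rag1 marks multipotent progenitors that are turning to the lymphoid lineages; Il7r, the receptor for interleukin 7, marks the common lymphoid progenitors that follow, and Ly6d those among them inclined to B cells.

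Almost all Dntt+ Flt3+ cells came from the 2 large hashtags. A963 held 141 of 4716 cells (2.99%, 2.52 to 3.52%) and A965 held 185 of 5567 (3.32%, 2.87 to 3.83%). The share in A965 was 1.11 times that in A963, with a log-normal 95% interval of 0.896 to 1.38 that includes 1. A962 had 2 such cells among 104. A961 had 0 of 68 and A964 0 of 73, with upper bounds of 5.28% and 4.93%.

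Members had a median of 19463 counts per cell, 15969 in A963 and 22169 in A965, against 24402 in the other 10200 cells. Xist, the RNA of the inactive X chromosome, was found in 141 of 141 A963 members and 25 of 185 in A965, and counts of 4 Y-linked genes in 18 and 141 members. Differences between these hashtags thus go along with a difference in sex-linked RNA, and sex, mouse and treatment cannot be told apart. Later neutrophil granule RNA made up 0.403% of counts in the median member and 0.375% in the median Klf1 cell, an erythroid cell that should lack it. Over 5% was found in 11 members, 7 of A963 and 4 of A965, in 29 of 760 Klf1 cells and in 4049 of the 10200 other cells. Scrublet called 12 of the 328 members doublets, and 223 of all filtered cells (2.12%).

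The values that chose the members are given as a description. Dntt ran from 2 to 138 counts per cell with a median of 23, and Flt3 from 2 to 17 with a median of 4. At the limits, 15 members had 2 Dntt counts and 66 had 2 Flt3 counts. Just outside were 42 cells with 1 Dntt count and 79 with 1 Flt3 count that met all else, 77 with 5 or more Siglech counts and 70 with 3 or more stem genes. The border to Siglech-bearing cells and to stem-gene cells was thus crowded: 71 members had 1 to 4 Siglech counts and 252 had 1 or 2 of the stem genes.

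In summed counts, Dntt reached 1357 CPM (summed counts scaled to a total of 1000000) in members and 29.2 CPM in the other cells. In single cells Dntt ran from 35.5 to 6097 CPM around a median of 1090 CPM in A963, and from 42.6 to 7450 CPM around 1121 CPM in A965. The ranges of both hashtags overlapped almost entirely, and each was wide.

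Satb1, Notch1 and Il7r, which the rule did not use, served to check the name. Satb1, a chromatin organiser of lymphoid cells (chromosome 17, 51736187 to 51833290, GRCm38), stood at 83.3 CPM in members and 12.8 CPM in the other cells, a fold of 6.51 (5.98 to 7.09). Its level per cell ran from 0 to 588 CPM around a median of 76.4 in A963 and from 0 to 1071 CPM around 45.3 in A965. Notch1, the receptor that directs progenitors to the T lineage (chromosome 2, 26457903 to 26516663), had 54.4 and 12.9 CPM, a fold of 4.21 (3.80 to 4.66). Il7r (chromosome 15, 9505788 to 9530176) had 113 and 7.96 CPM, a fold of 14.2 (13.1 to 15.4). All 3 were higher than in the other cells inside A963 and inside A965, so the name is kept, as a label only. This check was weak, because 4049 of the 10200 other cells had over 5% later neutrophil granule counts. The members were also chosen with earlier results of these data known. Among the cell groups drawn below, Satb1 and Notch1 were highest in members, but Il7r was as high or higher in Siglech cells. At equal depth, 152 of the 328 members had neither Il7r nor Ly6d.

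With every cell thinned to 8800 counts, Satb1 was found in 47.6% of members (42.1 to 53.1%), Il7r in 41.5% (36.1 to 47.0%) and Notch1 in 32.3% (27.3 to 37.7%). The same genes were found in 1.32%, 1.32% and 0.789% of the 760 Klf1 cells, which serve as background for free RNA. Without thinning the shares were 65.2%, 51.8% and 46.6% in members, at a median of 19463 counts, and 3.55%, 3.42% and 3.42% in Klf1 cells, at 42787. Each marker was therefore far above background, yet most members carried no Il7r count at equal depth.

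**Figure D1:**
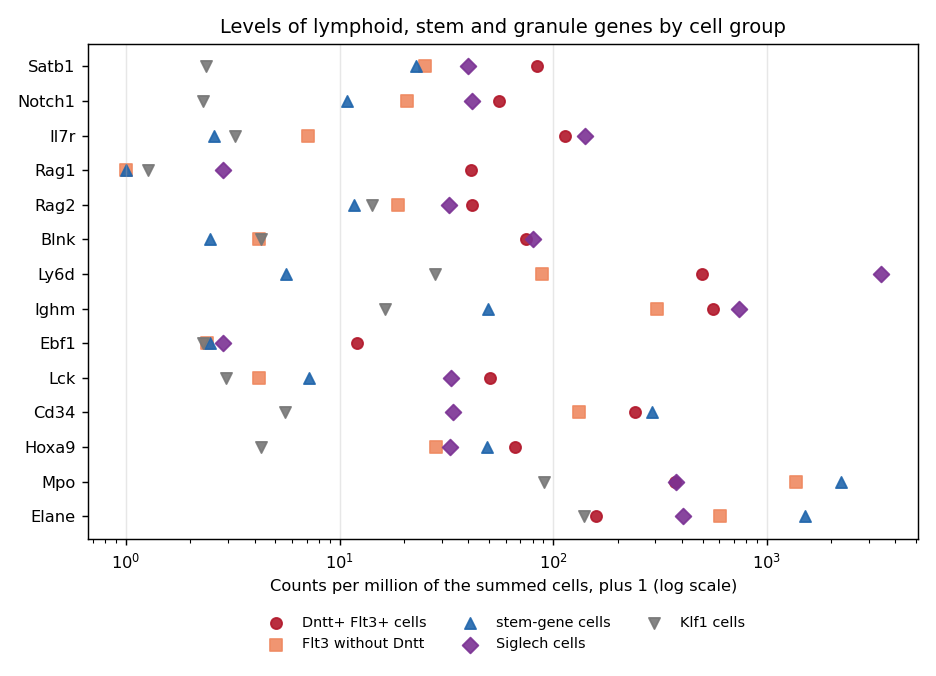
Levels of 14 genes as CPM of summed counts plus 1, on a log scale, in the Dntt+ Flt3+ cells and 4 other cell groups. Satb1, Notch1 and Rag1 lie furthest right in the Dntt+ Flt3+ cells, whereas Il7r and Ly6d are as high or higher in Siglech cells; each point is 1 sum over cells, with no error bar.

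Dntt lies on chromosome 19 at 41029275 to 41059525, 34.7 kb from Blnk, which encodes the adaptor that relays the pre-B cell receptor signal (40928927 to 40994535, opposite strand). Blnk had 73.3 CPM in members, 56.4 CPM in the 151 cells with Dntt but no Flt3, 79.0 CPM in Siglech cells and 3.21 CPM in cells with Flt3 but no Dntt. Dntt itself was at 185 CPM in Siglech cells and 1357 CPM in members, while Blnk was not lower in Siglech cells. Dntt chose the members and the groups with or without it, so its levels are a description only. The other 6 protein-coding genes within 250 kb did not share the full pattern of Blnk. Pik3ap1 shared a part, with 61.8 CPM in Siglech cells, but had 18.5 CPM in members and 16.3 CPM in cells with Flt3 but no Dntt. Opalin, 2.19 kb from Dntt, had 0.661 CPM in members, and Tm9sf3, 151 kb away, had 98.7 CPM in members and 106 CPM in cells with Flt3 alone.

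The 250 bases before the RefSeq start of Dntt, Blnk, Rag1 and Il7r are shown 5′ to 3′ because these genes are the neighbours and the recombinase and receptor genes that the results turn on. They lie at chr19:41029025-41029274 on the + strand, chr19:40994222-40994471 on the - strand, chr2:101649533-101649782 on the - strand and chr15:9529877-9530126 on the - strand of GRCm38.p6. The Blnk and Il7r windows lie inside the gene intervals given above, which come from GENCODE and start further upstream than RefSeq. Capitals mark 4 motifs searched on both strands: the E-box CAGCTG, the E-box CACCTG or its reverse complement CAGGTG, the octamer ATTTGCAT or its reverse ATGCAAAT, and the Ets core GGAAGT or its reverse ACTTCC.
Dntt: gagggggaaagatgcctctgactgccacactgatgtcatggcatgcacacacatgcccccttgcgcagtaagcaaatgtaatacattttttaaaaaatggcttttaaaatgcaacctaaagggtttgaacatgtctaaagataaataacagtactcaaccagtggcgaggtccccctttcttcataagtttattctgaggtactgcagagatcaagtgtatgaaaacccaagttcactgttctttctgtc
Blnk: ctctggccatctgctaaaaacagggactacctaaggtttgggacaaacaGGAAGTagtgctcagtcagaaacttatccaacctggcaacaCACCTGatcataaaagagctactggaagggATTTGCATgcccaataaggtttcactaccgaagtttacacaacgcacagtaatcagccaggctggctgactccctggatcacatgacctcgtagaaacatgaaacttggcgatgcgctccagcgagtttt
Rag1: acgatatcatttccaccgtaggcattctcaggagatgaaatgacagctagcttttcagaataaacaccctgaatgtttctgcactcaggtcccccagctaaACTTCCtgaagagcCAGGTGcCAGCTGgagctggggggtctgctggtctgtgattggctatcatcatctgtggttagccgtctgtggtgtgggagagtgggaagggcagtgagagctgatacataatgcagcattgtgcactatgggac
Il7r: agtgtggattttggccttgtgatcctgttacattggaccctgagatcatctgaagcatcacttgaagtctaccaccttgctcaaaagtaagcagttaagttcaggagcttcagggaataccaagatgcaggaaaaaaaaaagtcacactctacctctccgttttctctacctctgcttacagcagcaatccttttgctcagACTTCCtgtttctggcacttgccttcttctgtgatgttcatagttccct
The Dntt window held 0 of these matches, Blnk 3, Rag1 3 and Il7r 1, and none of the matches overlapped. Of the 20 genes furthest above the other cells, named below, 16 had a RefSeq entry, of which the first listed was used. CAGCTG was in 3 of the 16 windows and in 12.8% of 27025 gene windows of equal length, CACCTG in 3 and 17.1%, the Ets core in 4 and in 5401 of the 27025, and the octamer in 1, that of Blnk, and 1.61%. These are matches of letters in a window and no more.

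Of the recombination and end joining genes, 3 of 13 passed 2-fold higher than in the other cells and 0 lower (median log2 ratio 0.18, all genes 0.005; ratios for such counts have 10 CPM added). Over all 25661 genes, 1.18% passed 2-fold higher and 1.45% lower, 303 and 373 genes. Median-of-ratios scaling moved every log2 ratio by -0.31 before the 10 CPM are added and gave 169 and 548 genes. Under this scaling none of the genes ranked below changed direction, and of the 24 lists only NF-kB and inflammation, with a median near 0, did. Rag1, which makes the cutting enzyme with Rag2, had 40.2 CPM in members and 0.973 CPM in the other cells, a fold of 41.3 (35.0 to 48.7). It was found in 15.9% of thinned members (12.1 to 20.3%), in 1.07% of Siglech cells and in 0.132% of Klf1 cells. The 5 highest cells held 43.1% of the A963 counts of Rag1 and 46.1% of those of A965, so its sum rested on few cells. Rag2 was 3.63-fold higher (3.22 to 4.08), but Klf1 cells showed it in 10.7% after thinning against 26.5% of members. Xrcc6, the Ku70 subunit that binds broken DNA ends, had 156 and 28.1 CPM, while Xrcc5, its partner Ku80, had 7.27 and 5.24 CPM. Polm, a polymerase related to Dntt, had 0 counts in members.

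Among lymphoid transcription factors, 7 of 22 passed 2-fold higher and 1 lower, with a median log2 ratio of 0.53. The 7 were Tcf4, Satb1, Bcl11a, Mef2c, Sox4, Runx2 and Runx3. Sox4, needed for B cell development, had 190 and 25.7 CPM, a fold of 7.39 (6.98 to 7.82), and Mef2c, a factor of lymphoid and myeloid choice, had 232 and 51.1 CPM. Id2, an inhibitor of E proteins such as Tcf4, was the gene that passed in the other direction, at 34.0 and 106 CPM. Ebf1 and Pax5, the factors that fix B cell fate, were low, at 11.1 and 6.34 CPM, and were found in 7.93% and 3.66% of thinned members. Ikzf3 had 0 counts.

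Of the cytokine, Notch and homing receptors, 4 of 15 passed 2-fold higher and 0 lower (median log2 ratio 0.36), among them Il7r, Il2rg and Notch1. Il2rg, the chain that pairs with Il7r, had 73.2 and 27.1 CPM. Kit stood at 26.0 CPM in members and 17.9 CPM in the other cells. Ccr9, a thymus homing receptor, had 12.6 CPM in members and 107 CPM in Siglech cells.

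B lineage genes were the list with the most members above 2-fold, 9 of 18, with 1 lower (median log2 ratio 0.997). Blnk was 12.6-fold higher (11.4 to 13.8) and Cd72, a B cell surface inhibitor, 7.94-fold (7.06 to 8.90). Ighm, the mu heavy chain locus, had 561 and 154 CPM and Ly6d 497 and 148 CPM. Cd79a, Vpreb2, Vpreb3, Igll1 and Blk also passed, some of them through few cells. No count of Cd79a, Ebf1, Pax5, Vpreb1, Vpreb3 or Igll1 was found in 273 members. Cd79a was at 567 CPM in the 17 members with at least 3 of these 6 genes and at 30.3 CPM in all members. Vpreb2 is nearly identical to Vpreb1, so how their counts divide is uncertain. Igkc, the kappa light chain, was lower, at 7.14 and 38.2 CPM. Of the 6 B lineage markers none was at 0, and they summed to 108 CPM in members and 27.5 CPM in the other cells, but the median member had only 7.05 CPM of them together.

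T lineage genes were in part higher in members, and several had few or 0 counts. Of 16 genes, 3 passed 2-fold higher and 0 lower, against 1.18% and 1.45% of all genes, with a median log2 ratio of 0.04. Lck, a kinase of T cell receptor signalling, had 49.8 and 3.12 CPM, a fold of 16.0 (14.1 to 18.0), Lat, an adaptor, 27.1 and 3.29 CPM, and Cd247, the zeta chain, 11.4 and 0.493 CPM. Cd3e, Trac and Cd2 had 0 counts in members, Cd3g 0.132 CPM and Bcl11b 0.132 CPM. Of 9 Notch target genes none passed 2-fold in either direction (median log2 ratio 0.03). Hes1 and Dtx1 stood at 0.396 CPM each, and Hey1 and Notch3 at 0, while Myc had 54.2 CPM against 24.0 CPM in the other cells.

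By rank, the 20 genes furthest above the other cells were Myl10, Il12a, Egfl7, Il7r, H2-Ob, Myl4, Gimap6, Cmah, Cnn3, Cox6a2, Tmem108, Sox4, Bfsp2, Sdc1, Blnk, Cd27, Ptprcap, Tsc22d1, Gpr171 and Mta3. Myl10, a myosin regulatory light chain of precursor lymphocytes, led at 166 and 6.16 CPM, a fold of 26.9 (25.01 to 28.9). Il12a, which encodes the p35 subunit of interleukin 12, was 15.7-fold higher (14.5 to 16.9), H2-Ob, a chain of the class II peptide loading modulator H2-O, 16.2-fold (14.8 to 17.7), and Egfl7, a secreted EGF-like protein, 10.1-fold (9.60 to 10.7). Cd27, a TNF receptor family member used to sort lymphoid-primed progenitors, was 7.45-fold higher. Cox6a2, a cytochrome oxidase subunit abundant in plasmacytoid dendritic cells, was 6.83-fold higher (6.56 to 7.10).

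Some of these genes stood higher above the other cells in one hashtag than in the other. Tmem108 was 30.0-fold above the other cells of A963 and 11.8-fold above those of A965, Myl4 20.2-fold and 9.60-fold, and Cox6a2 4.67-fold and 8.65-fold. Myl10, in contrast, was 28.1-fold and 27.7-fold higher inside the 2 hashtags although its level differed between them. Of the 10 genes furthest below, 4 were globins, near-identical copies whose single values are uncertain, and the rest were granule genes: Elane, Fcnb, Ms4a3, Hp, Chil3 and Pglyrp1. Elane, neutrophil elastase, was 14.5-fold lower (13.7 to 15.4), at 158 against 2289 CPM.

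**Figure D2:**
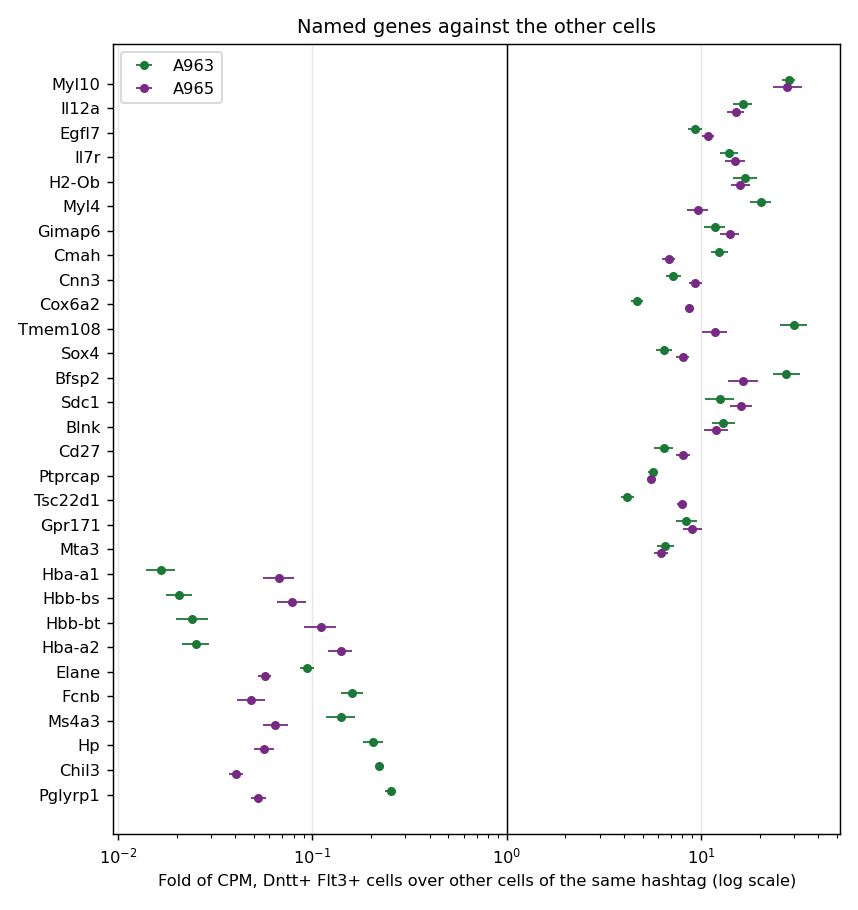
Fold of CPM in Dntt+ Flt3+ cells over the other cells of the same hashtag, on a log scale, for the 20 genes furthest above and the 10 furthest below; bars are exact 95% counting intervals. Genes were ranked only if they lay on the same side of 1 in A963 and A965, so that agreement was set by the choice. Tmem108 and Myl4 lie further from 1 in A963 and Cox6a2 in A965.

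Genes of multipotent cells were in part higher. Of 14 genes of the multipotent progenitor surface, 4 passed 2-fold higher and 0 lower: Cd27, Cd34, Cd69 and Cd93. Cd34, a sialomucin of progenitors, had 240 and 50.2 CPM. Of 16 stem and multipotent genes outside the rule, 6 passed higher and 0 lower, among them Hoxa9 (65.3 and 10.2 CPM), Hoxa7, Meis1, Msi2, Erg and Ly6a. MHC class I genes had a median log2 ratio of 0.86, with Tap1, Tap2 and H2-Q7 of 12 genes passing 2-fold. Myeloid genes lay the other way: 12 of 16 granulocyte and monocyte priming genes passed 2-fold lower (median -2.00), as did 11 of 12 later neutrophil granule genes (median -2.99), 11 of 12 erythroid genes (median -2.60) and 5 of 7 basophil and mast genes. Cox6a2 was the one of 15 dendritic genes that passed 2-fold higher, with H2-Aa and Ccr2 lower. Lists of general cell state gave few calls: 1 of 16 interferon-stimulated genes passed higher, Rtp4, and 1 of 12 unfolded protein response genes lower, Sdf2l1, with 0 of 14 NF-kB and inflammation genes, 0 of 12 immediate early genes and 0 of 11 ribosome biogenesis genes either way. The 4 granulocyte markers Mpo, Elane, Ctsg and Prtn3 summed to 1276 CPM in members against 7964 CPM in the other cells, and 430 CPM in Klf1 cells.

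A group that differs from members in 1 gene of the rule was the 466 cells with at least 2 Flt3 counts and no Dntt count that met the rest. Members had more Myl10 (60.9-fold, 44.3 to 86.1), Blnk (22.9-fold, 16.9 to 31.6), Il7r (18.4-fold, 14.8 to 23.2), Cmah, Gimap6, Ly6d (5.69-fold), Bfsp2, Il12a, Nrgn and Cox6a2. Less abundant in members were the class II genes Cd74 (7.51-fold lower, 6.97 to 8.10) and H2-Ab1 (6.84-fold lower), Ccr2, a monocyte chemokine receptor, F13a1, Ifi30, Upb1, Prtn3, Plbd1, Cfp and Lgals3. Rag1 had 304 counts in members and 0 in the cells without Dntt, where the upper bound on the share of cells with a count was 0.788%; this bounds detection, not expression. Over all 22984 genes with a count in either group, 0.522% passed 2-fold higher and 0.374% lower. B lineage genes passed higher in 8 of 18 cases and lower in 0, and dendritic genes lower in 10 of 15 and higher in 1 (median log2 ratio -1.44, all genes 0.007). Granulocyte and monocyte priming genes passed lower in 8 of 16.

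These Flt3 cells had a median of 27162 counts, and 67.4% of them had at least 5 G2/M counts after thinning, against 43.9% of members. Their 4 conventional dendritic markers summed to 1743 CPM, with a median cell at 49.3 CPM, and to 215 CPM in members, with a median of 0. None of those markers was at 0 in either group. Their part in the difference was not tested.

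Set against the 347 stem-gene cells, which had at least 3 of the 9 stem genes and fewer than 2 Dntt counts, members had more of Ly6d and Il7r. Ly6d was 107-fold higher (79.8 to 148), Il7r 71.7-fold (43.2 to 129), Cox6a2 55.1-fold (43.3 to 71.2), Blnk 49.8-fold (29.4 to 91.7) and Ighm 11.6-fold (10.5 to 12.8). Cmah, Cnn3, Mpeg1, Irf8 and Ly86 completed the 10 highest; Irf8, a factor of dendritic cells, monocytes and B cells, was at 646 and 82.6 CPM. The 10 lowest were Elane, Ms4a3, Myct1, Cd63, Mpo, Ctsg, Apoe, Serpina3g, Prtn3 and Car2, with Mpo 5.98-fold lower (5.75 to 6.22). Of 22620 genes, 0.698% passed 2-fold higher and 0.734% lower. B lineage genes passed higher in 8 of 18 and lower in 0, dendritic genes higher in 6 of 15 and lower in 0, lymphoid transcription factors higher in 3 of 22 and lower in 1, and T lineage genes higher in 2 of 16 and lower in 0. Stem and multipotent genes outside the rule passed lower in 6 of 16 (among them Gata2, Esam, Angpt1 and Tal1) and higher in 0. Receptors passed higher in 5 of 15, among them Il7r, Notch1, Ccr9 and Ccr7, and lower in 1, Kit.

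Several lymphoid genes were as high or higher in Siglech cells. The 562 cells with 5 or more counts of Siglech, a lectin of plasmacytoid dendritic cells, had 140 CPM of Il7r, 3414 CPM of Ly6d, 79.0 CPM of Blnk and 741 CPM of Ighm. Dntt, which chose the members, was lower there, at 185 CPM against 1357 CPM in members. After thinning, Ly6d was found in 88.1% of them, and the interval of the share with Il7r was 45.8 to 54.2%. Rag1 was at 1.86 CPM, Ebf1 at 1.86 CPM and Cd34 at 32.8 CPM there, against 40.2, 11.1 and 240 CPM in members. The 4 plasmacytoid markers Siglech, Bst2, Klk1 and Cox6a2 summed to 716 CPM in members and 4166 CPM in Siglech cells. Siglech counts chose both groups, so part of this gap was set by the choice. Klk1, which the rule did not use, was at 0.132 CPM in members and 55.2 CPM in Siglech cells.

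Members differed widely among themselves, in splits chosen after their values were seen. Il7r and Ly6d, detected after thinning, split them into 152 cells with neither, 73 with Il7r alone, 40 with Ly6d alone and 63 with both. Rag1 was at 3.52 CPM in cells with neither, 40.7 CPM with Il7r alone, 43.3 CPM with Ly6d alone and 169 CPM with both. Dntt, which chose the members and is given as a description, was at 915, 2082, 929 and 2347 CPM in the same order. Cd34 followed the absence of Ly6d, at 316, 239, 84.6 and 108 CPM. Mpo was at 464, 272, 486 and 76.2 CPM. Before thinning it was found in 110 of 152, 49 of 73, 18 of 40 and 35 of 63 cells. Cox6a2 was at 199, 368, 697 and 860 CPM, and Irf8 at 501, 463, 1229 and 890 CPM. The median counts per cell were 22235, 18440, 19109 and 15253, and Siglech was found before thinning in 44 of the 103 cells with Ly6d and in 27 of the 225 without.

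**Figure D3:**
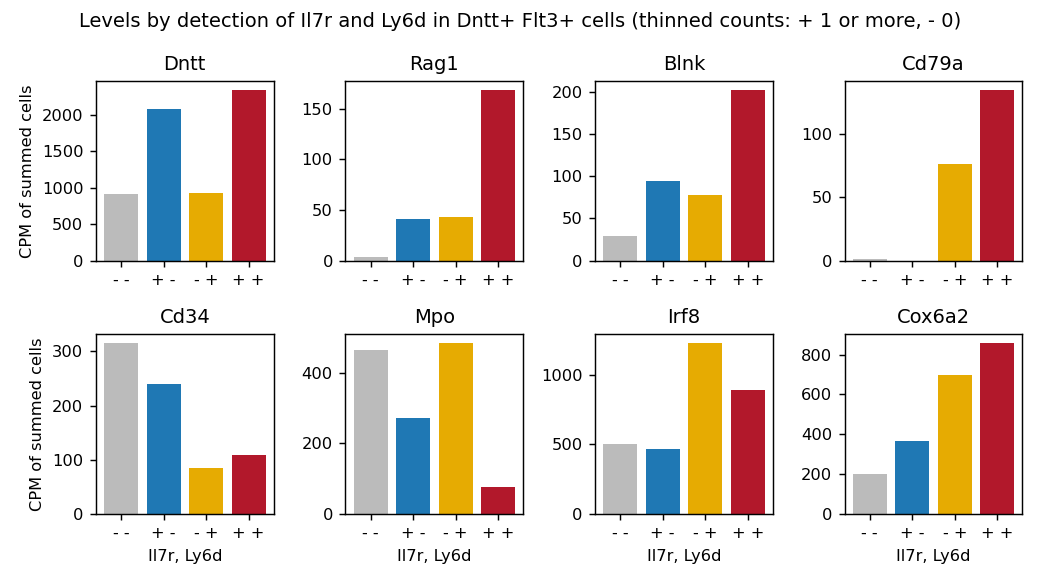
Summed CPM of 8 genes in Dntt+ Flt3+ cells split by detection of Il7r (left sign) and Ly6d (right sign) after thinning, in groups of 152, 73, 40 and 63 cells. Rag1, Blnk and Cd79a are highest with both genes and Cd34 is highest with neither; bars are sums over cells of 1 library, so no replicate error is drawn.

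A small set of members carried B cell genes. At least 3 of Cd79a, Ebf1, Pax5, Vpreb1, Vpreb3 and Igll1 were found in 17 members (5.18%, 3.05 to 8.17%), 9 of A963 and 8 of A965. In these, Rag1 was at 433 CPM and found in 15 cells, Ly6d was found in 16, and Cd34 stood at 9.34 CPM. In the 273 members with none of the 6 genes, Rag1 was at 11.7 CPM and Cd34 at 256 CPM. Mpo was higher in the 17 cells, at 838 against 282 CPM, though found in only 10 of them. Their median of 13383 counts was below the 19718 of the cells with none.

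Ordered by Dntt per total count, the 110 lowest, 109 middle and 109 highest members had 34.8, 104 and 252 CPM of Il7r. This order rests on a gene that chose the members and on depth, so it is given as a description. Myl10 went from 59.6 to 123 and 394 CPM and Rag1 from 6.12 to 31.0 and 107 CPM. Mpo went the other way, from 557 to 305 and 163 CPM, as did Irf8, from 847 to 617 and 358 CPM. Cd34 stayed between 233 and 259 CPM. Median counts per cell were 23115, 20431 and 15203 along this order; the part of depth was not tested.

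Between hashtags, members of A965 and A963 differed in a number of genes. Dntt, which chose the members, was at 1338 and 1389 CPM. The ratio of A965 over A963 was taken within members only, so these differences are not shown to be particular to members. Over 20238 genes with a count in members, 0.865% passed 1.5-fold higher in A965 and 1.51% lower, 175 and 306 genes, and 235 and 236 under median-of-ratios scaling. The 10 genes furthest above were Ly6a, Cd74, Ifitm1, Ccl9, S100a4, H2-Ab1, Ccr2, Ms4a6c, Prtn3 and Ctsg. Ly6a (chromosome 15, 74994877 to 74998031), which encodes Sca-1, a marker of stem and multipotent cells, was found in 143 of 185 A965 members and 32 of 141 of A963. It ran from 0 to 1795 CPM per cell around a median of 191 in A965, and from 0 to 611 CPM around 0 in A963. In sums it was 6.18-fold higher (5.06 to 7.61). Ifitm1, an interferon-induced membrane protein, was 5.10-fold higher (4.58 to 5.69), with medians per cell of 202 and 0 CPM. Ccl9, a chemokine, was 3.87-fold higher (3.27 to 4.60).

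Class II genes differed through few cells. Cd74, the invariant chain, was 6.83-fold higher in A965 (5.22 to 9.09), but 5 cells held 79.5% of its A965 counts and the median cell had 0 in both hashtags. H2-Ab1 was 3.29-fold higher, with 57.8% of counts in 5 cells. The 6 of 15 dendritic genes that passed 1.5-fold higher were Cd74, H2-Aa, H2-Ab1, H2-Eb1, Cd7 and Ccr2, and the 4 conventional dendritic markers summed to 309 CPM for A965 against 54.1 CPM for A963, with 0 of them absent. Their part in the difference was not tested.

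Prtn3, proteinase 3 of the granules, differed through many cells, with medians per cell of 234 CPM for A965 and 50.7 CPM for A963 and a fold of 2.27 (2.10 to 2.46). Its list, granulocyte and monocyte priming, did not share this direction: 3 of 16 genes passed 1.5-fold higher (Ctsg, Prtn3 and F13a1) and 1 lower, Cebpe, with a median log2 ratio of 0.01. Mpo, myeloperoxidase, was at 327 CPM in A965 members against 454 CPM for A963, a ratio of 0.720 (0.668 to 0.776), with medians per cell of 49.7 and 102 CPM. Without cells of mismatched Xist or Y counts its log2 ratio was 0.0173. Il2rg was 2.15-fold higher in A965 (1.75 to 2.66), and Klrd1 and Nkg7, genes of natural killer cells, 2.89-fold and 1.92-fold. Of 11 innate lymphoid and natural killer genes, 2 passed 1.5-fold higher and 0 lower (median log2 ratio 0.12), against 0.865% and 1.51% of all genes. Of the 4 markers Nkg7, Klrd1, Eomes and Zbtb16, 2 had 0 counts in A963 members. Together they summed to 199 CPM in all members and 286 CPM in the other cells.

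In summed counts, Il7r, Satb1 and Blnk were lower in A965. B lineage genes passed 1.5-fold lower in 5 of 18 and higher in 0 (median log2 ratio -0.15, all genes -0.007): Cd79a, Vpreb3, Igll1, Blnk and Blk. The Il7r level was 82.9 CPM in members of A965 against 165 CPM in those of A963, a ratio of 0.502 (0.437 to 0.575). It was found in 34.6% (27.8 to 41.9%) of thinned A965 members and 49.6% (41.1 to 58.2%) of A963 members, with medians per cell of 0 and 98.3 CPM. The intervals of these shares overlap. Satb1 was at 68.5 and 109 CPM and Blnk at 56.2 and 101 CPM, whereas Notch1, at 57.0 and 50.5 CPM, had a ratio whose interval includes 1 (1.13, 0.918 to 1.40). Cd79a rested on 10 cells of A965 and 12 of A963, Vpreb3 on 9 and 8, and Blk on 27 and 25. The 6 B lineage markers together had a median per cell of 23.1 CPM in A965 and 0 in A963, against sums of 92.7 and 136 CPM. Igll1 was 0.164 times as high, but was found in 2 cells of A965 and 3 of A963. Recombination genes passed 1.5-fold in 0 of 13 either way; Rag1 was at 34.9 and 49.7 CPM.

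Myl10 (chromosome 5, 136693146 to 136701094) was the gene furthest below in A965. Its level was 53.0 CPM there against 361 CPM in A963, a fold of 6.80 (5.92 to 7.84), and was found in 51 of 185 and 80 of 141 members. Per cell it ran from 0 to 1128 CPM around a median of 0 in A965, and from 0 to 3717 CPM around 119 in A963. Its folds over the other cells of the same hashtag, given above, were nearly equal in A963 and A965. The other cells of A965 thus also had less Myl10 than those of A963, so the difference was not confined to members as the rule draws them. The other cells include cells just outside the rule, and which of them held the Myl10 counts was not tested. Slc35d3, a solute carrier family member, was 3.70-fold lower (2.91 to 4.74), found in 40 and 61 cells.

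The other 8 genes furthest below in A965 were granule and neutrophil genes: Ltf, Ngp, Chil3, Lcn2, Camp, S100a9, Pglyrp1 and Ifitm6. Their sums rested on few cells of A963, with 5 cells holding from 69.5% of its S100a9 counts to 82.3% of its Ltf counts. Camp, cathelicidin, was 4.05-fold lower in sums, yet its medians per cell were 255 CPM for A965 and 298 CPM for A963. Without the 11 members that had over 5% granule counts, Ltf and Ifitm6 turned to log2 ratios of 0.10 and 0.12. With the rule applied to thinned cells, which left 211 members, 7 of the 8 turned, Camp excepted. The 5 neutrophil markers summed to 7425 CPM for A965 against 23976 CPM for A963, with 0 of them absent, and to 9544 CPM in Klf1 cells.

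**Figure D4:**
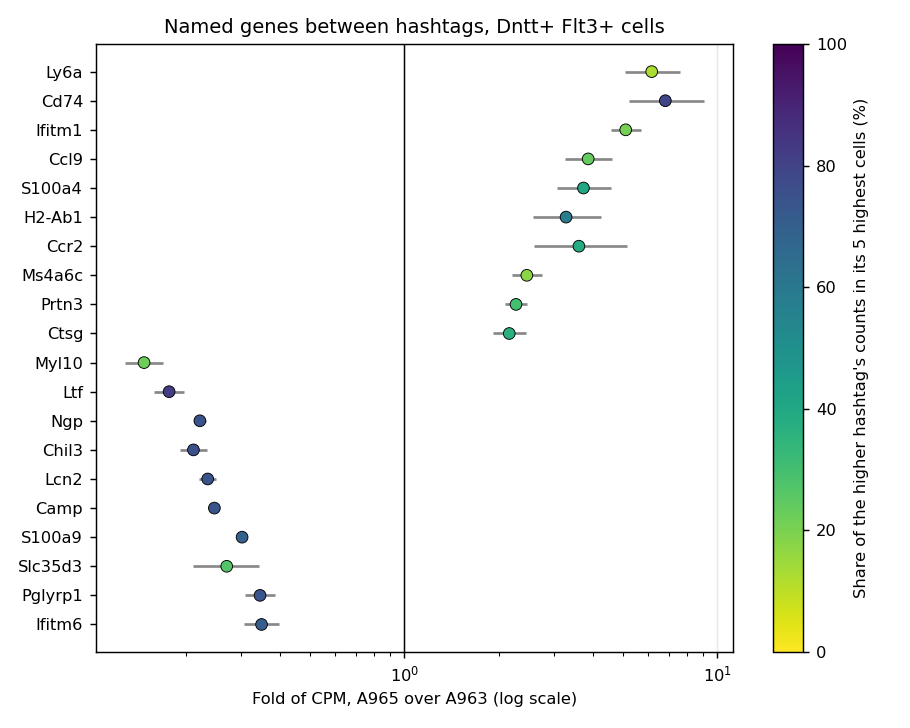
Fold of CPM in A965 over A963 within Dntt+ Flt3+ cells, on a log scale, for the 10 genes furthest each way, with exact 95% counting intervals; colour gives the percentage of the higher hashtag's counts that its 5 highest cells hold. Ly6a, Ifitm1 and Myl10 are spread over many cells, while Cd74 and the neutrophil genes are held by few.

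**Figure D5:**
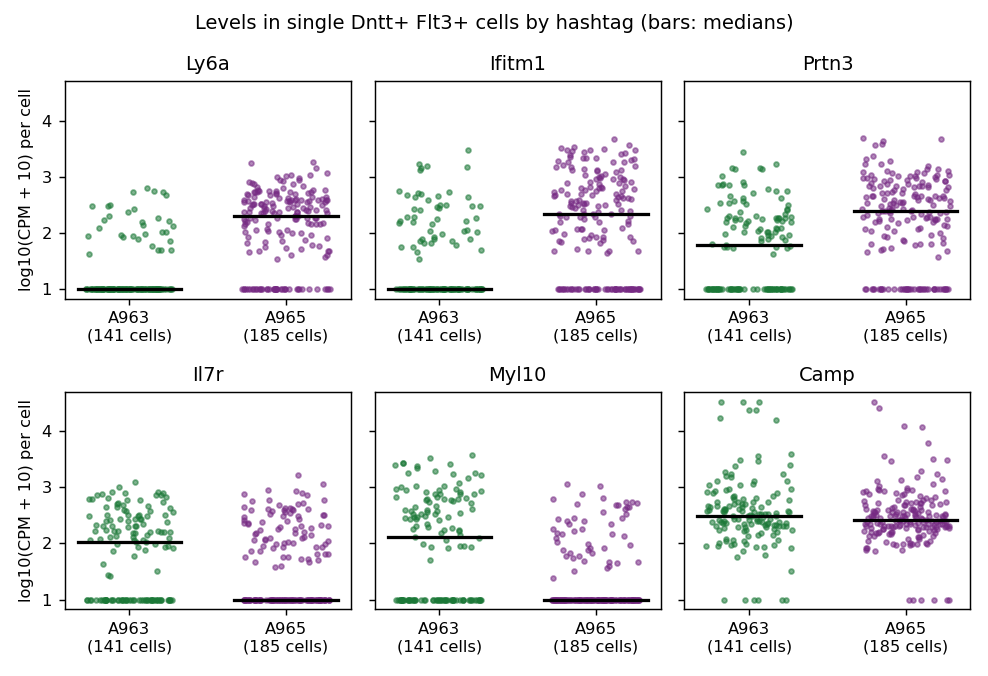
Level of 6 genes in each Dntt+ Flt3+ cell as log10(CPM + 10), where 1 means no count; bars are medians. Ly6a is found in 143 of 185 A965 cells and 32 of 141 A963 cells, Ifitm1 in 129 and 51, and Myl10 in 51 and 80, and Camp has nearly equal medians with a few very high cells.

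Interferon-stimulated genes did not move with Ifitm1 as a list: of 16, 1 passed 1.5-fold higher in A965, Oasl2, and 2 lower, among them Ifi44 (median log2 ratio 0.02). Of the 4 Ifitm genes, Ifitm1 and Ifitm3 passed higher and Ifitm6 lower, the last through the few cells above. Of the ribosome biogenesis and growth genes, 4 of 11 passed lower (Nolc1, Gnl3, Rrp9 and Myc) and 0 higher, with a median log2 ratio of -0.42. Myc was at 43.0 and 73.7 CPM.

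Transcripts of G2 and mitosis were found in fewer members than other cells. After thinning, at least 5 G2/M counts were found in 43.9% of members (38.5 to 49.5%), 74.3% of the other cells (73.4 to 75.1%) and 46.1% of stem-gene cells (40.8 to 51.5%). S phase counts of at least 5 were found in 77.7% of members (72.8 to 82.1%) and 80.4% of the other cells. The G2/M share was 35.5% (27.6 to 44.0%) in A963 members and 50.8% (43.4 to 58.2%) in A965 members, and that list's median log2 ratio was 0.31 with 0 of 12 genes past 1.5-fold. Free RNA can enter such counts, and its part was not tested.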

How the data were processed

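One library was analysed, made on the BD Rhapsody platform with TAS-Seq, per the labels. The authors deposited a table of whole-number counts for 25661 genes in 10731 cells, whose names, per the file headers, carry the hashtag; whether a count is a molecule or a read, and the aligner, are not given in the sources used here. The submitters' processing notes name the build GRCm38, Seurat 4.2.0 and R 4.2.1, without their use. Cells named doublet (190) or not-detected (6) were left out, and 500 genes and at most 20% mitochondrial counts were required, which removed 7 of 10535 cells. Totals ran from 9023 to 93908 counts in members. Each group was summed and scaled to a total of 1000000 (CPM). Ratios used for calls and ranks have 10 CPM added, with thresholds of 2-fold, or 1.5-fold between hashtags; folds with intervals have none and come from summed counts by the exact conditional binomial method. Shares have Clopper-Pearson intervals. For shares of cells, each cell was thinned at random to 8800 counts. Later neutrophil granule counts are those of a fixed list of 12 genes.

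Other cells are all filtered cells outside the rule. Cells with Flt3 and no Dntt met the rest of the rule, stem-gene cells also had fewer than 5 Siglech and 3 Klf1 counts, Siglech cells fewer than 3 Klf1 counts, and Klf1 cells at least 3.

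Genes were named by rank of the ratio, 20 higher and 10 lower than the other cells and 10 each way elsewhere, among those with at least 50 CPM and counts in 25% of cells of the higher group, leaving out mitochondrial, ribosomal protein, Gm and Rik names; members of 24 gene lists by role were also named. The members and lists were chosen with earlier results of these data known. The splits among members, the Dntt neighbours, the promoters and motifs, and the set without granule-rich members were chosen after values were seen. Of 310 list genes, 4 were not in the table. Some list genes are counted but their single values are not reported here.

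Coordinates are from GENCODE M21 (GRCm38), where 24749 symbols (96.4%) were found, and promoters from RefSeq (GRCm38.p6). Python 3.11.15, numpy 2.4.6, scipy 1.17.1, pandas 2.3.3, scanpy 1.11.5 with Scrublet, and matplotlib 3.10.9 were used, and the ratio and interval code was tested on simulated data. Alternatives changed the rule, thinning, scaling, the value added, doublets and cells of mismatched Xist or Y counts.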

Additional observations from a re-analysis of the deposited data

Results flagged for a closer look

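Cells that the deposited table names doublet, which no comparison uses, held 151 counts of Dntt in 24 of 190 cells, or 26.5 CPM, and 3 of them met the rule. Cells named not-detected held 0 counts in 6 cells. This was listed because it is a signal in cells that no comparison used; the other filtered cells had 29.2 CPM of Dntt.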

How the results depend on the processing

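No paired analysis was possible because the series has 1 library and no hashtag is replicated. The number of members was 253 with at least 3 counts of Dntt and of Flt3, 457 with at least 1, 222 with fewer than 2 stem genes, 211 with the rule on thinned cells and 285 without cells of mismatched Xist or Y counts. The share of members with Il7r was 49.3% with the rule on thinned cells and 51.8% without thinning. With 1 CPM added in place of 10, counts of genes higher and lower became 1342 and 1089 against the other cells, 758 and 412 against cells with Flt3 and no Dntt, 637 and 898 against stem-gene cells, and 2113 and 2645 for A965 over A963. Median-of-ratios scaling left 169 genes higher than in the other cells. Lower than in cells with Flt3 and no Dntt were 151 genes with the rule on thinned cells and 153 with thinned counts. For A965 over A963, genes higher and lower numbered 284 and 485 with at least 3 counts, 338 and 528 with fewer than 2 stem genes, 462 and 660 with the rule on thinned cells and 436 and 572 with thinned counts, and 181 were lower with at least 1 count. Some log2 ratios changed sign. The G2/M list over stem-gene cells had a median of -0.0575 with fewer than 2 stem genes. For A965 over A963 with the rule on thinned cells, the later neutrophil granule list had a median of 0.31, and Ltf 0.68, Ngp 0.24, Chil3 0.38, Lcn2 0.72, S100a9 0.45, Pglyrp1 0.62 and Ifitm6 0.60. Without members of over 5% granule counts, an alternative chosen after seeing the data, Ltf had 0.10 and Ifitm6 0.12, and without cells of mismatched Xist or Y counts Mpo had 0.0173. The cause of these changes was not tested. Without Scrublet doublets, with no filter on cells and without granule-rich members, all 11 member numbers, shares and gene counts stayed within their limits. With 1 library, neither depth nor any interval measures the spread between mice.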
